A study of Mus musculus with 28 samples.

Results

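The genes examined were 9 genes by which white adipocytes are usually recognised, namely *Adipoq*, *Plin1*, *Fabp4*, *Lpl*, *Pparg*, *Cidec*, *Cfd*, *Lep* and *Cd36*, of 25719 genes counted. They were matched by symbol in bulk RNA-sequencing of tail tendon fascicles, the fibre bundles of the tendon, from Fosl-2(Tg) and WT mice. Fosl-2(Tg) mice carry a randomly inserted murine *Fosl2* transgene, which encodes an AP-1 transcription factor, together with eGFP under the MHC class I promoter H2Kb, so that the transgene is not restricted to tendon cells. The WT controls were non-transgenic mice, and all mice were on the C57BL/6 background. There were 28 libraries of 1 mouse each. The early group, aged 6 to 8 weeks in the study's text, held 7 WT and 8 Fosl-2(Tg) mice, all of them male. The established group, older than 14 weeks, held 6 WT and 7 Fosl-2(Tg) mice, with 1 male in each genotype and otherwise females, so that stage and sex can hardly be told apart.

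White adipocytes store triglyceride in a single large droplet and release hormones into the blood. PPARγ, the product of *Pparg*, drives their differentiation and switches on most of the other members. Lipoprotein lipase (*Lpl*) frees fatty acids from circulating lipoproteins, CD36 takes them up and FABP4 carries them in the cytosol. Perilipin 1 (*Plin1*) and CIDEC coat and enlarge the droplet, whereas adiponectin (*Adipoq*), leptin (*Lep*) and adipsin (*Cfd*) are secreted. These genes differ in how restricted they are: *Adipoq*, *Plin1*, *Cidec* and *Lep* are largely confined to adipocytes, *Fabp4* and *Cd36* are also expressed by capillary endothelium and macrophages, and *Lpl* and *Cd36* by muscle.

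Libraries held between 9645598 and 66894396 counts. *Fosl2* itself did not separate the genotypes (early log2 fold change 0.20, FDR = 0.918, and established 0.38, FDR = 0.141, by edgeR's quasi-likelihood test), and its counts include reads of the endogenous gene. Markers of skeletal muscle varied from 42.79 to 17120 summed counts scaled to library size (CPM) between libraries and those of endothelium from 6.32 to 76.7 CPM. The tendon markers were *Tnmd*, *Scx*, *Mkx*, *Fmod*, *Thbs4*, *Col1a1*, *Col1a2* and *Tnc*. Their sum, which follows the most abundant of them, did not overlap between the established genotypes. It lay between 91430 and 183900 CPM in WT and between 3329 and 73330 CPM in Fosl-2(Tg) libraries.

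The adipocyte-restricted members were close to absent, so that the name adipocyte genes was not borne out by the genes that define this cell type. Over all 28 libraries, which held 617076180 counts together, *Adipoq*, *Plin1*, *Cidec* and *Lep* had 305 counts in total. No library held more than 47 of them (WT early replicate 6), and Fosl-2(Tg) established replicate 4 held none. Together these 4 genes never exceeded a raw share of 1.31 CPM in a library. In bulk tissue, fewer cells of a type and less RNA per cell cannot be told apart.

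Genes were compared per kilobase of annotated exon, so that their order depends on the annotated lengths. The mean level over the 28 libraries was 3.35 CPM per kb for *Lpl* and 3.24 CPM per kb for *Cd36*. These 2 genes did not separate, since *Lpl* was the higher in 17 of 28 libraries. *Fabp4* followed with a level of 0.874 CPM per kb and was below *Cd36* in all 28 libraries. Its level overlapped that of *Cfd*, at 0.686 CPM per kb, with *Fabp4* higher in 15 of 28 libraries. For *Fabp4* the annotated exons together span 4953 bases, its whole gene with introns included, which lowers its value per kb. Before this scaling the medians were 3.24 CPM for *Fabp4* and 0.517 CPM for *Cfd*. *Pparg* was lower, at 0.0957 CPM per kb, and *Adipoq*, *Lep*, *Plin1* and *Cidec* ended the order at 0.0468, 0.0433, 0.0267 and 0.0238 CPM per kb, too few counts to rank them. The genes of lipid uptake were thus measured in these tendons, *Cfd* and *Pparg* were detected at low counts, and *Adipoq*, *Lep* and the lipid droplet genes *Plin1* and *Cidec* were at the limit of detection.

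*Adipoq*, encoding adiponectin (ENSMUSG00000022878, GRCm39 chromosome 16, 22964106 to 22976810, plus strand), had 0 counts in 14 of 28 libraries. A floor of 3 counts corresponded to between 0.0424 and 0.329 CPM in those 14 libraries. The highest count in early WT mice was 18 (median 2, lowest 0) and in early Fosl-2(Tg) mice 4 (median 0, lowest 0). In the established group, WT mice had 0 to 5 counts (median 0) and Fosl-2(Tg) mice 0 to 8 counts (median 1). Most counts came from a few mice, as 5 libraries with at least 5 counts held 52 of the 70 *Adipoq* counts. These were WT early replicates 5 and 6, WT established replicate 6 and Fosl-2(Tg) established replicates 2 and 3, so that they belonged to both genotypes.

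*Cfd*, the adipsin gene (ENSMUSG00000061780, chromosome 10, 79726668 to 79728496, plus strand), was highest on the CPM scale in 3 of these 5 libraries, at 2.08 CPM (36 counts) in WT early replicate 5, 1.80 CPM (77 counts) in WT early replicate 6 and 1.36 CPM (18 counts) in WT established replicate 6. Fosl-2(Tg) established replicates 2 and 3 had 33 *Cfd* counts each, at 0.701 and 0.930 CPM. The median *Cfd* count was 20 in early WT, 5.5 in early Fosl-2(Tg), 14.5 in established WT and 8 in established Fosl-2(Tg) mice, and the ranges of all 4 groups overlapped. The deviations of *Cfd* and *Adipoq* from their group means on the log2 scale had a Pearson correlation of 0.772 over 28 libraries, which share depth and scaling. Such a value in sparse counts is a description only.

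*Lep* (ENSMUSG00000059201, chromosome 6, 29060216 to 29073877, plus strand), the leptin gene, had 1 to 9 counts in early WT mice (median 5) and 0 to 8 in early Fosl-2(Tg) mice (median 3). In established mice it had 0 to 8 counts in WT (median 2.5) and 0 to 9 in Fosl-2(Tg) tendons (median 1). *Plin1* (ENSMUSG00000030546, chromosome 7, 79369966 to 79382718, minus strand) reached 15 counts in early WT, 5 in early Fosl-2(Tg), 6 in established WT and 12 in established Fosl-2(Tg) mice, with group medians of 3, 2, 2.5 and 1 counts. For both genes the genotypes overlapped at each stage. The exact permutation p-values (two-sided, all 6435 early or 1716 established groupings of the mice, on log2 CPM) were 0.372 and 0.429 for *Lep* and 0.223 and 0.679 for *Plin1*.

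*Cidec* (ENSMUSG00000030278, chromosome 6, 113400691 to 113412721, minus strand), which fuses lipid droplets, had the lowest p between genotypes among the exact permutation tests of single members. Early WT mice had 1 to 8 counts (median 2, 22 counts over 7 libraries), and early Fosl-2(Tg) mice 0 to 2 counts (median 0, 4 counts over 8 libraries, with 5 at 0). The exact permutation p was 0.00528, unadjusted, over 18 such tests. Early *Adipoq* had 39 counts in WT and 7 in Fosl-2(Tg) mice, and early *Cfd* 178 and 62 counts (exact permutation p = 0.121 for each). With *Cidec* medians below the floor of 3 counts in both early groups, no fold was computed for it, and *Cidec* was too sparse for the fit across genes. Established mice showed no such contrast in *Cidec*, with 0 to 3 counts in WT and 0 to 5 in Fosl-2(Tg) tendons (exact permutation p = 0.343).

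**Figure D1:**
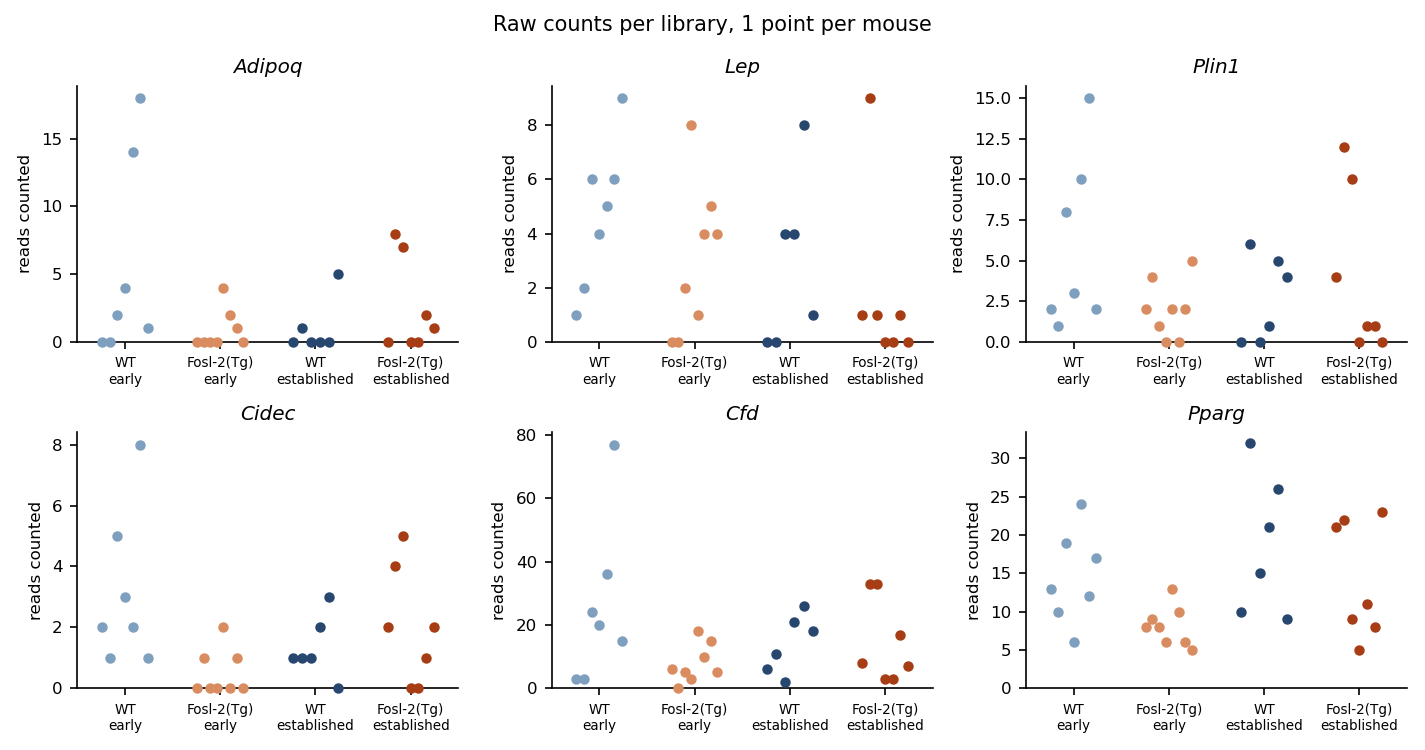
Reads counted (linear axis, not scaled for library size) for *Adipoq*, *Lep*, *Plin1*, *Cidec*, *Cfd* and *Pparg* in each of the 28 libraries, 1 point per mouse, by genotype and stage. *Adipoq*, *Lep*, *Plin1* and *Cidec* reach 18, 9, 15 and 8 counts at most, and the highest *Cfd* value is 77 counts in an early WT mouse.

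*Pparg*, the transcription factor of adipocyte differentiation (ENSMUSG00000000440, chromosome 6, 115337675 to 115468268, plus strand), was detected in every library at 5 to 32 counts. Its level was 0.801 ± 0.393 CPM (mean ± SD, 7 mice) in early WT against 0.597 ± 0.226 CPM (8 mice) in early Fosl-2(Tg) tendons. At the established stage the WT level was 0.636 ± 0.201 CPM (6 mice) and the Fosl-2(Tg) level 0.640 ± 0.382 CPM (7 mice). The genotypes overlapped at both stages.

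Genes with enough counts were compared between genotypes by edgeR's quasi-likelihood test, with p-values adjusted over all genes tested (FDR) and calls made at an FDR of at most 0.05. This left 4 of the 9 members in the early comparison (*Pparg*, *Fabp4*, *Cd36* and *Lpl*) and 5 in the others, where *Cfd* also passed. None of the 4 was called in the early comparison, in which 0.0396% of the 15138 genes tested were called. None of the 5 was called in the established comparison either, where 6.51% of 15862 genes were called. Without adjustment, 1 of the 4 early members (*Cd36*) and none of the 5 established members had a p under 0.05, and DESeq2 and limma voom called none.

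*Cd36*, encoding the fatty acid translocase (ENSMUSG00000002944, chromosome 5, 17986432 to 18094067, minus strand), was among the most abundant members. Early WT mice ranged from 40.3 to 64.9 CPM (median 47.4) and early Fosl-2(Tg) mice from 23.7 to 52.0 CPM (median 32.8). Of the 8 Fosl-2(Tg) mice, 5 lay below every WT mouse, and 2 WT mice lay above every Fosl-2(Tg) mouse. The log2 fold change was -0.45 (standard error, SE, 0.16), with an unadjusted p of 0.0116 and an FDR of 0.666 by edgeR, so that it was not called. With the replicate number as a block, the log2 fold change was -0.55 (FDR = 0.0887 by edgeR). That fit left out Fosl-2(Tg) early replicate 8 (51.1 CPM), which has no WT mouse of its number. All 8 macrophage markers had negative log2 fold changes in the same comparison, none of them called, with summed levels of 644.5 to 1076 CPM in WT and 542.8 to 833.9 CPM in Fosl-2(Tg) mice. Within the early group, the deviations of *Cd36* had a Pearson correlation of 0.0876 with the macrophage list. The values were 0.642 with the keratinocyte, 0.597 with the Schwann cell and -0.597 with the tendon list. They were 0.244 with the muscle, 0.253 with the endothelial and -0.267 with the erythroid list. The part of these cell types in the *Cd36* values was not tested.

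In established mice, *Cd36* ranged from 19.6 to 54.6 CPM in WT (median 40.1) and from 16.6 to 69.4 CPM in Fosl-2(Tg) tendons (median 31.6). The groups overlapped almost fully, with a log2 fold change of -0.03 (SE 0.33, FDR = 0.961 by edgeR). The interaction term, which compares the genotype effect between stages, was 0.41 for *Cd36* (SE 0.37, FDR = 0.499 by edgeR). The early and established effects were therefore not shown to differ.

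*Lpl*, encoding lipoprotein lipase (ENSMUSG00000015568, chromosome 8, 69284603 to 69360100, plus strand), varied little between early mice. Levels ranged from 30.6 to 53.6 CPM in early WT (median 46.8) and from 30.1 to 50.9 CPM in early Fosl-2(Tg) mice (median 38.7). In established mice they ranged from 25.3 to 70.8 CPM in WT (median 36.8) and from 24.1 to 53.5 CPM in Fosl-2(Tg) mice (median 40.6). The genotypes overlapped at both stages, with log2 fold changes of -0.19 (SE 0.13, FDR = 0.857) and -0.11 (SE 0.26, FDR = 0.808) by edgeR. *Pparg* had log2 fold changes of -0.40 (SE 0.35) and 0.00 (SE 0.41), and *Cfd*, tested in the established group, of 0.24 (SE 0.56).

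**Figure D2:**
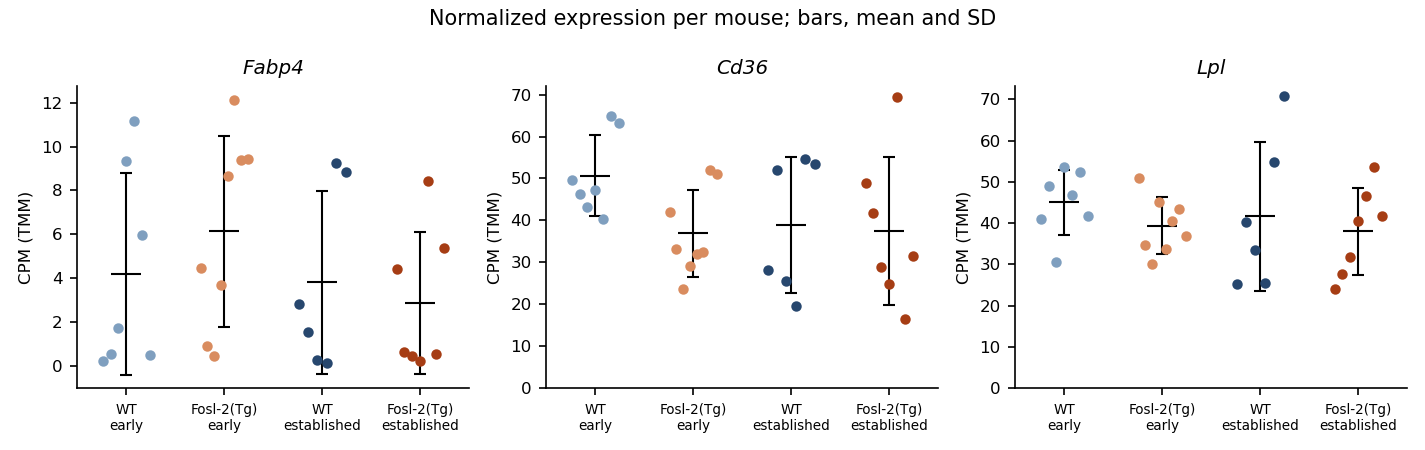
TMM-normalized expression (CPM, linear axis) of *Fabp4*, *Cd36* and *Lpl* in the 28 mice, 1 point per mouse, with bars for the mean and SD of each group. *Cd36* in early Fosl-2(Tg) mice has 5 of 8 points below every early WT mouse, and *Fabp4* spreads from near 0 to 12.1 CPM within groups.

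*Fabp4*, encoding the fatty acid-binding protein of adipocytes (ENSMUSG00000062515, chromosome 3, 10268785 to 10273737, minus strand), varied most between mice. It ranged from 0.202 to 11.2 CPM in early WT (median 1.72) and from 0.445 to 12.1 CPM in early Fosl-2(Tg) mice (median 6.56). In established mice it ranged from 0.127 to 9.26 CPM in WT (median 2.17) and from 0.202 to 8.44 CPM in Fosl-2(Tg) tendons (median 0.616). High and low mice occurred in every group, and the highest WT mouse exceeded the lowest by 55.4-fold in the early and 72.8-fold in the established group. These folds are imprecise, since the lowest mice held 3 *Fabp4* counts (WT early replicate 1) and 9 (WT established replicate 4).

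This spread set the precision of the genotype comparison. The log2 fold change of *Fabp4* was 0.56 in early mice (SE 0.73, FDR = 0.922 by edgeR) and -0.38 in established mice (SE 0.99, FDR = 0.829). Within groups, the SD of its log2 CPM lay between 1.68 and 2.30, above that of 98.9% to 99.8% of the genes tested in the same groups. *Lpl* in early WT mice had an SD of 0.28, equal to 2 decimals to the median of all genes tested. In established mice its SD was 0.60 in WT and 0.42 in Fosl-2(Tg) mice, above that of 91.8% and 72% of the genes tested. The SDs of *Cd36* lay between 0.26 in early WT and 0.68 in established Fosl-2(Tg) mice, above those of 45.8% and 89.9% of the genes tested. For *Cd36* in established WT mice this share was 93.1%.

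*Fabp4* varied with genes of blood vessels and muscle. Over 28 libraries, the Pearson correlation of its deviations from the group means was 0.966 with the endothelial marker list (*Pecam1*, *Cdh5*, *Kdr*, *Cldn5*, *Emcn*, *Tie1*, *Flt1* and *Egfl7*) and 0.938 with the skeletal muscle list. It was 0.976 in the early and 0.958 in the established group for the endothelial list, so that the relation was present at both stages. With *Adipoq* and *Cfd* the correlations of *Fabp4* were 0.462 and 0.551 over 28 libraries, 0.805 and 0.788 in the early group and 0.0376 and 0.269 in the established group, and with *Plin1*, *Cidec* and *Lep* they were 0.277, 0.101 and 0.141 over 28 libraries. These points share libraries, depth and scaling, and the values are a description. Among 14521 genes with a mean of at least 1 CPM, the genes most like *Fabp4* had correlations of 0.96 to 0.968. They included *Adgrf5*, *Ptprb* and *Adgrl4*, which are expressed by endothelium, *Gpihbp1*, which anchors lipoprotein lipase on capillaries, and *Rgs5* and *Abcc9*, which mark pericytes. *Alpk3* and *Unc45b*, which act in striated muscle, and *Agbl1* were also among them.

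With the muscle score as a covariate, the log2 fold change of *Fabp4* was 0.00 in early mice and 0.84 in established mice, and with the endothelial score 0.05 and 1.03, of which none passed the threshold (lowest FDR = 0.165 by edgeR). The direction in established mice was thus opposite to that without the covariates. The summed endothelial markers were between 6.32 and 59.76 CPM in early WT, 8.553 and 47.35 CPM in early Fosl-2(Tg), 9.571 and 76.7 CPM in established WT and 7.821 and 54.23 CPM in established Fosl-2(Tg) mice. *Cd36* and *Lpl* varied less closely with these lists, with correlations of 0.58 and 0.426 with the muscle list and 0.469 and 0.399 with the endothelial list. *Cd36* had a correlation of -0.698 with the summed tendon markers, which follow the most abundant of them.

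**Figure D3:**
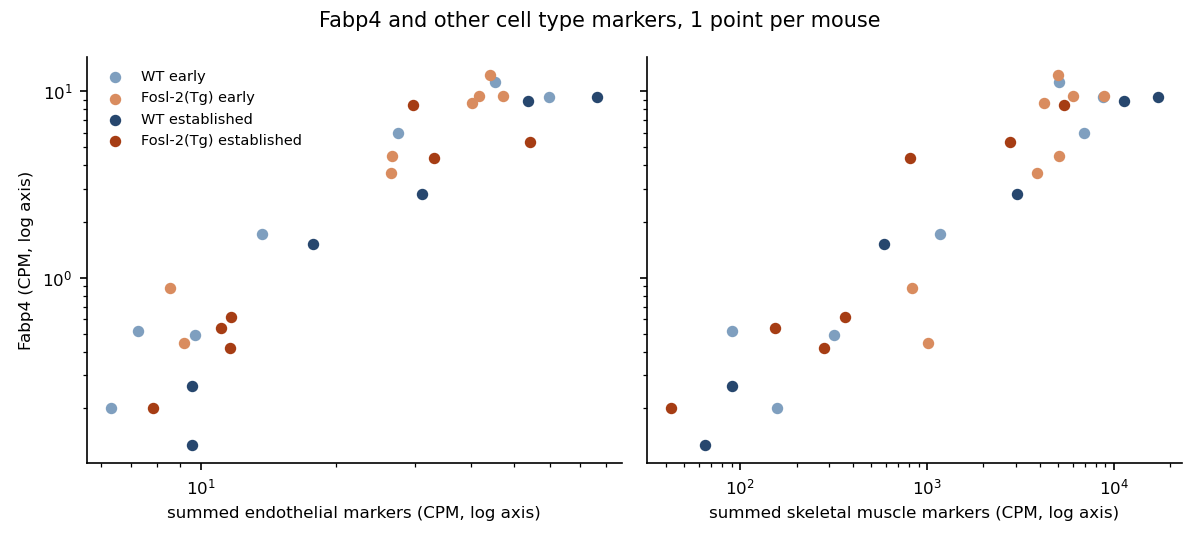
*Fabp4* (CPM, log axis) against the summed CPM of the endothelial and the skeletal muscle marker lists (log axes), 1 point per mouse, coloured by genotype and stage. In both panels the mice of all 4 groups lie along a common rising band, from 0.127 to 12.1 CPM of *Fabp4*.

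Between stages, the effect of genotype was compared by the interaction term, in which 7.43% of 16082 genes tested were called and none of the 5 members tested. The largest estimates were 1.33 for *Cfd* (SE 0.78, FDR = 0.284) and -0.95 for *Fabp4* (SE 1.27, FDR = 0.674) by edgeR. In WT mice, established against early, 5.81% of genes tested were called and none of the 5 members, *Cfd* having a log2 fold change of -1.19 (SE 0.56, FDR = 0.203). *Cfd* in WT mice was 1.08 ± 0.742 CPM (mean ± SD, 7 mice) early and 0.522 ± 0.465 CPM (6 mice) in the established group.

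In Fosl-2(Tg) mice, 47.8% of genes tested were called between the stages, and again none of the 5 members. *Fabp4* had a log2 fold change of -1.14 (SE 0.88, FDR = 0.294), and *Cd36*, *Lpl*, *Pparg* and *Cfd* lay between -0.05 and 0.15 (FDR of 0.843 to 0.933 by edgeR). Before adjustment, p was under 0.05 for *Cfd* between stages in WT mice and for no other member in the interaction or either comparison of stages, and DESeq2 called no member. These comparisons of stage set young males against older, mostly female mice. The calls for *Fabp4* changed in 1 alternative of each stage comparison. It was called lower in established WT mice with the endothelial score as a covariate (-1.09, FDR = 0.0482) and lower in established Fosl-2(Tg) mice by limma voom (-2.64, FDR = 0.0283).

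**Figure D4:**
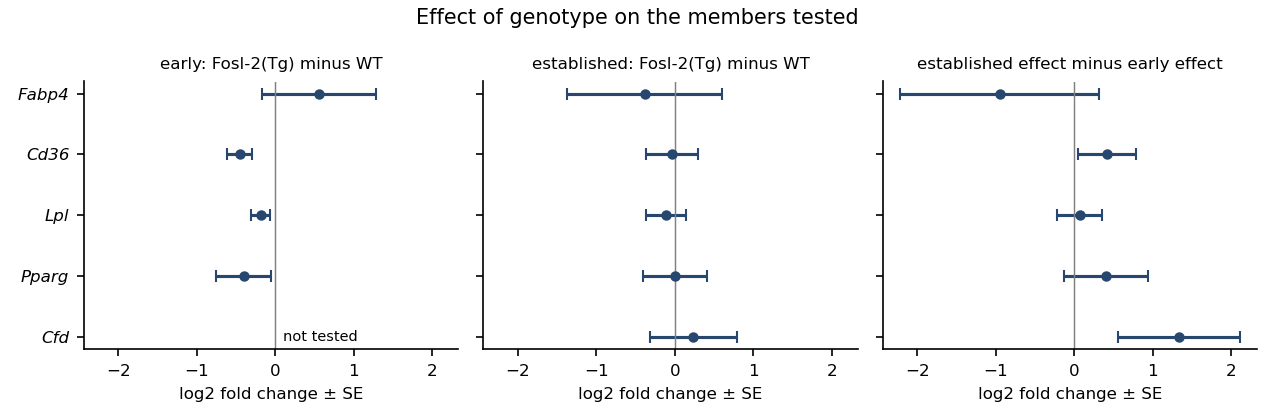
Log2 fold changes (points) with standard errors (bars) of the members tested, for Fosl-2(Tg) minus WT in early and established mice and for the difference of these effects. *Cfd* was not tested in the early comparison, and the widest bars are those of *Fabp4*, with SEs of 0.73, 0.99 and 1.27.

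Around the 9 members, 74 other genes of adipocyte biology were examined, in lists of adipogenic transcription factors, droplet proteins, fatty acid uptake, lipogenesis, lipolysis, adipokines and their receptors, brown and beige adipocyte genes and adipose progenitor genes. In early mice none of the 64 tested was called by edgeR, DESeq2 or limma voom. The lowest p-values by edgeR's quasi-likelihood test were those of *Lepr* (log2 fold change -0.83, FDR = 0.748), *Bscl2* (0.22, FDR = 0.775) and *Adipor1* (0.18, FDR = 0.828), of which only those of *Lepr* and *Bscl2* were under 0.05 before adjustment. In established mice 7 of 65 were called, 4 of them higher with the transgene and 3 lower (10.8% against 6.51% of all genes). Their median log2 fold change was -0.06, beside 0.01 over all genes tested.

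Of the 11 transcription factors tested, 8 had positive log2 fold changes (median 0.14). Of the 11, 2 were called, both higher (18.2% against 6.51% of all genes). *Klf15*, which acts in lipid and glucose metabolism and responds to glucocorticoids, ranged from 2.13 to 12.5 CPM in established WT (median 8.06) and from 8.88 to 83.7 CPM in Fosl-2(Tg) mice (median 24.2). The log2 fold change was 2.28 (SE 0.50, FDR = 0.0225 by edgeR), with some overlap between the groups. *Cebpd*, an early factor of adipogenesis that is also induced in inflammation, ranged from 20.2 to 68.2 CPM in WT (median 42.2) and from 58.6 to 136.4 CPM in Fosl-2(Tg) mice (median 107.3), a log2 fold change of 1.33 (SE 0.26, FDR = 0.0157). *Pparg* itself had an established log2 fold change of 0.00 (SE 0.41) and was not called.

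*Lepr*, the leptin receptor, rose from a median of 67.4 CPM (range 46.1 to 143.9) in established WT to 154.4 CPM (109.1 to 231.1) in Fosl-2(Tg) mice, a log2 fold change of 1.10 (SE 0.26, FDR = 0.0292). Its ligand *Lep* was near 0 in the same libraries. *Dgat1*, which catalyses the last step of triglyceride synthesis, rose slightly, from 18.0 to 22.0 CPM in WT (median 20.6) to 21.6 to 33.0 CPM in Fosl-2(Tg) mice (median 24.4), a log2 fold change of 0.35 (FDR = 0.0457). *Dgat1* lost its call without a filter on low counts (FDR = 0.0629), with the endothelial score (FDR = 0.0526) and in females only (FDR = 0.0983).

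Among the genes that fell, *Fasn*, encoding fatty acid synthase, ranged from 174.8 to 260.5 CPM in established WT (median 202) and from 63.6 to 151.1 CPM in Fosl-2(Tg) mice (median 137.7), without overlap. The log2 fold change was -0.71 (SE 0.16, FDR = 0.0276 by edgeR). *Bscl2*, encoding the droplet-forming protein seipin, ranged from 32.0 to 38.0 CPM in WT and from 17.9 to 29.9 CPM in Fosl-2(Tg) mice, also without overlap (log2 fold change -0.38, FDR = 0.0386, and 0.0518 without a filter on low counts). The share of all genes tested without such overlap was not computed, so that a lack of overlap does not set *Fasn* and *Bscl2* apart. *Dio2*, the deiodinase that activates thyroid hormone in brown fat and other tissues, ranged from 6.46 to 82.4 CPM in WT (median 23.1) and from 1.28 to 7.24 CPM in Fosl-2(Tg) mice (median 3.35), a log2 fold change of -2.87 (SE 0.55, FDR = 0.0153). The highest *Dio2* value was that of WT replicate 2, without which the log2 fold change was -2.21 and still called.

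Transcripts of lipogenic enzymes were abundant beside the scarce adipocyte-restricted ones. *Scd1*, encoding stearoyl-CoA desaturase and named here after its values were seen, had group means of 305.4 to 381.6 CPM, and *Ucp1*, the defining gene of brown fat, had 5 counts over all libraries. The number of 7 called genes changed when single mice were left out. It was 2 without WT replicate 1, 3 without WT replicate 2, WT replicate 4 or Fosl-2(Tg) replicate 2, and 4 without WT replicate 5, WT replicate 6 or Fosl-2(Tg) replicate 1. Without WT replicate 1, genes called over the whole table fell from 1032 to 361, and the log2 fold changes of *Klf15* (2.17), *Lepr* (1.06), *Fasn* (-0.72), *Bscl2* (-0.38) and *Dgat1* (0.35) stayed near their values with all mice. *Cebpd* and *Dio2* were called in all 24 alternatives, while *Klf15* lost its call in 1, *Fasn* in 5, *Lepr* in 7, *Bscl2* in 10 and *Dgat1* in 15 of them. Cell type markers were tested in the same comparison. Of 8 tendon markers 4 were called lower (50% against 6.51% of all genes). All 8 macrophage markers had positive log2 fold changes (median 0.22), and 1 was called (12.5%), *Cd163* (1.07, FDR = 0.00465 by edgeR). All 10 muscle markers had negative (median -1.86) and all 4 erythroid markers tested positive log2 fold changes (median 2.38), none of them called. Apart from the fits with the muscle and endothelial scores, the part of these markers in the differences was not tested.

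**Figure D5:**
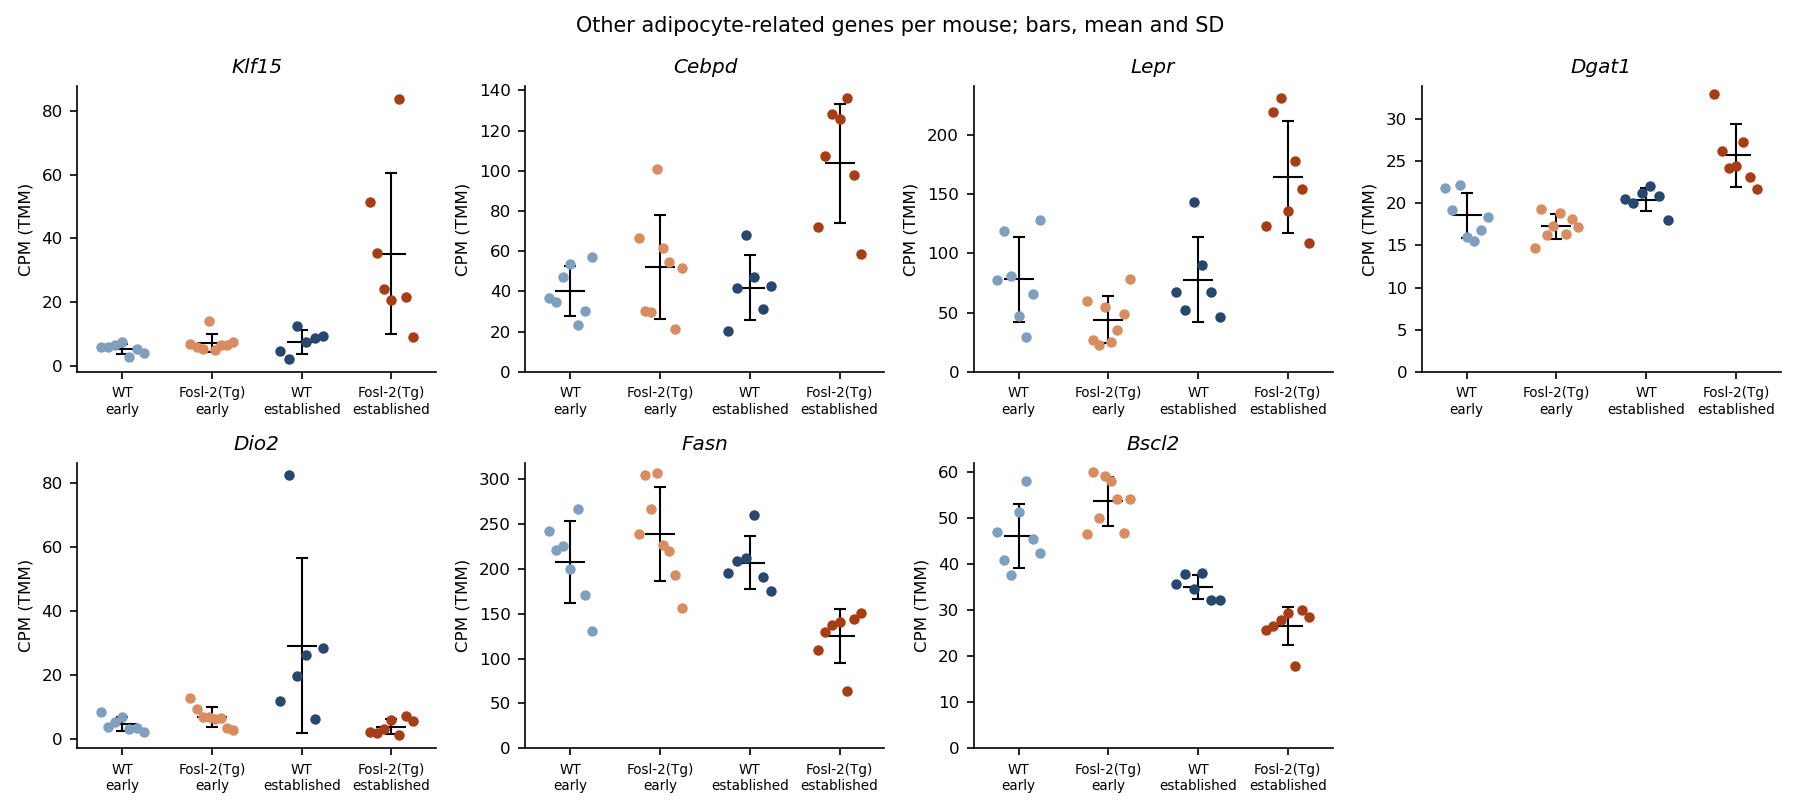
TMM-normalized expression (CPM, linear axes) of the 7 other adipocyte-related genes called between genotypes in established mice, 1 point per mouse, with bars for the mean and SD of each group. *Klf15*, *Cebpd*, *Lepr* and *Dgat1* are higher and *Dio2*, *Fasn* and *Bscl2* lower in established Fosl-2(Tg) mice, and *Fasn* and *Bscl2* do not overlap between the established genotypes.

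The genotype effect differed between stages for 6 of these 65 genes by the interaction term (9.23% against 7.43% of all genes). It was more positive in established mice for *Lepr* (1.92, FDR = 0.0117), *Klf15* (1.83, FDR = 0.0373) and *Dgat1* (0.44, FDR = 0.0391) and more negative for *Dio2* (-3.42, FDR = 0.00412), *Bscl2* (-0.61, FDR = 0.0115) and *Fasn* (-0.92, FDR = 0.0229). *Klf15* lost this call in 15 and *Dgat1* in 16 of 36 alternatives, among them the fit without the 2 established males (FDR = 0.0912 and 0.0784). Without WT established replicate 2 the value of *Dio2* was -2.75, still called. For *Cebpd* the difference between stages was 0.96 (FDR = 0.141 by edgeR).

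Between stages in WT mice, 6 of the 65 genes were called (9.23% against 5.81% of all genes). *Dio2* rose (2.61, FDR = 0.00196), as did *Rbp4*, encoding a retinol carrier (2.43, FDR = 0.032), and *Acaca*, encoding acetyl-CoA carboxylase (0.24, FDR = 0.0327). *Dpp4*, a surface protein of adipose progenitors, fell (-1.06, FDR = 0.00826), as did *Bscl2* (-0.39, FDR = 0.0222) and *Hilpda*, encoding a droplet protein induced by hypoxia (-0.71, FDR = 0.0308). *Rbp4* rested on WT established replicate 2, at 16.7 CPM against 0.704 to 1.66 CPM in the other mice, and had a log2 fold change of 0.71 (FDR = 0.428) without it. *Dio2* was highest in the same mouse and had a log2 fold change of 1.95 without it, still called. *Acaca* lost its call in 18 and *Hilpda* in 9 of 36 alternatives. The number called was 3 without WT early replicate 5, WT early replicate 6 or WT established replicate 3.

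In Fosl-2(Tg) mice, 20 of the 65 genes were called between stages, 11 higher and 9 lower (30.8% against 47.8% of all genes). The lowest p-values among those higher in established mice were those of *Dgat1* (0.58, FDR = 1.09e-05), *Lepr* (1.91, FDR = 1.39e-05), *Klf15* (2.30, FDR = 1.64e-05), *Ebf2* (1.04, FDR = 0.000201) and *Pdgfra* (0.98, FDR = 0.000221), the latter a receptor of fibroblasts and adipose progenitors. Among those lower were *Bscl2* (-1.01, FDR = 3.32e-08), *Fasn* (-0.93, FDR = 6.1e-05), *Abhd5* (-0.43, FDR = 0.000122), a co-activator of lipolysis, the adiponectin receptor *Adipor1* (-0.40, FDR = 0.000644) and the NADPH-producing *Me1* (-1.08, FDR = 0.00137). Of the lipogenesis list, 7 of 12 genes tested were called, 5 of them lower (58.3% against 47.8% of all genes). This was the highest share of these lists, which as single lists also hold members. The lowest was 0, as for the 11 genes of fatty acid uptake, *Lpl* among them.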

How the data were processed

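Tail tendon fascicle RNA was depleted of rRNA and sequenced, and per the labels and methods the authors aligned it to GRCm39 by STAR and obtained gene counts by featureCounts on GENCODE release M26. The deposited values are raw counts. Strand and multimapper settings are not given in the sources used here. Annotated antisense lncRNAs overlap *Pparg*, *Cidec*, *Fabp4*, *Cd36*, *Lpl* and *Adipoq* and are not among the genes counted. Without the strand setting, it is not known whether their reads were counted for these members. Of 25719 identifiers, 25505 were named with GENCODE release 39 of the same assembly, which also gave positions and exon lengths (the union of annotated exons).

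Counts were filtered with filterByExpr (minimum count 10, minimum total 15), scaled by TMM and tested with edgeR 4.0.16 in R 4.3.3, with Benjamini-Hochberg adjustment over the whole table, within each stage or, for the interaction and the comparisons of stages, in one fit of 4 groups. CPM per mouse were scaled over all 28 libraries, with a prior count of 2 for log2 CPM. The muscle and endothelial scores used as covariates were mean log2 CPM. Correlations with marker lists used instead the log2 of the summed CPM of a list, which follows its most abundant genes. Library totals of 9645598 to 66894396 counts limit precision, and floors of 3 counts cover counting error only. Fits were tested on simulated data.

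Genotype, stage, sex and replicate were taken from the labels. The deviations of same-numbered early mice had correlations of 0.14 to 0.404 over all 7 pairs. Every value was above 0.1, the rule used here for pairing. No label states a shared litter or day, and no early WT mouse correlated best with the Fosl-2(Tg) mouse of its own number. Pairing was therefore not established. With this block, which left out Fosl-2(Tg) early replicate 8, 11 early genes were called in place of 6.

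Alternatives were DESeq2 1.42.0, limma 3.58.1 voom, RLE scaling, other filters, the replicate block, one fit of all libraries, sex, a muscle score and each mouse left out. The replicate block used only mice whose number occurs in both genotypes of a stage. The endothelial score and the genes most like *Fabp4*, *Cd36* and *Lpl* singly were added after the data had been seen. The members and lists were chosen with earlier results of these data known. Named genes were the 9 members, *Fosl2* and, of the other adipocyte-related genes, up to 5 per comparison and direction with the lowest p among those called, or up to 3 where none was called, and the 10 genes most like the mean of *Adipoq*, *Plin1*, *Cidec*, *Cfd* and *Lep* (at least 1 CPM on average), of which some are not reported here. Figures were drawn with matplotlib 3.10.9.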

Additional observations from a re-analysis of the deposited data

Results flagged for a closer look

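Single mice stood apart from the others of their group in 10 of 100 combinations of gene and group examined. The measure was the gap to the nearest mouse over the group's range, for which chance gives about 5% in normally distributed values. The CPM values were not transformed, some were at 0 and combinations share libraries, so that this rate need not hold here. Of the 36 combinations of the 9 members, 3 were so marked, and each rests on a few reads. *Adipoq* was 0.237 CPM in Fosl-2(Tg) early replicate 5 (4 counts, the others 0 to 0.107 CPM) and 0.377 CPM in WT established replicate 6 (5 counts, the others 0 to 0.0276 CPM), and *Lep* was 0.191 CPM in Fosl-2(Tg) established replicate 2 (9 counts, the others 0 to 0.067 CPM).

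Among the other genes, WT established replicate 2 stood apart in *Dio2* (82.4 CPM, the others 6.46 to 28.6) and *Rbp4* (16.7 CPM, the others 0.704 to 1.66), and WT established replicate 6 in *Abhd5* (43.3 CPM, the others 33.6 to 36.4). Fosl-2(Tg) early replicate 4 stood apart in *Klf15* (14.1 CPM, the others 4.97 to 7.42) and *Acaca* (98.2 CPM, the others 70.7 to 83.0), and Fosl-2(Tg) early replicate 1 was low in *Me1* (12.5 CPM, the others 21.9 to 28.2). The male Fosl-2(Tg) established replicate 5 was low in *Bscl2* (18.0 CPM, the others 25.7 to 29.9).

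The genotype effect differed between stages by edgeR's interaction term, on the log2 scale, for *Lepr* (1.92), *Klf15* (1.83), *Dgat1* (0.44), *Fasn* (-0.92), *Bscl2* (-0.61) and *Dio2* (-3.42). Stage and sex cannot be told apart in this difference.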

How the results depend on the processing

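No member was called between genotypes, or in the interaction, in any alternative. The 1 member called between stages in WT (endothelial score) and the 1 in Fosl-2(Tg) mice (limma voom) was *Fabp4*. Other adipocyte-related genes called between established genotypes numbered 11 with the muscle score (7 without) and 2 to 8 with a mouse left out. Between stages they numbered 10 by limma voom in WT (6 by edgeR; 3 to 7 with a mouse left out) and 33 by limma voom in Fosl-2(Tg) mice (20 by edgeR; 18 to 26 with a mouse left out). Genes called over the whole table numbered 4 to 23 early, 361 to 2146 established, 702 to 1951 for the interaction, 419 to 2145 between stages in WT and 6876 to 8889 in Fosl-2(Tg) mice.

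Reversed directions concerned log2 fold changes of members that edgeR had not called, and the cause was not tested. In established mice, *Pparg* was -0.00079 with RLE scaling, -0.00039 without a filter, -0.00033 by limma voom, -0.00405 in one fit of all 28 libraries and -0.24 with the replicate block. *Fabp4* was 0.68 by limma voom, 0.84 with the muscle and 1.03 with the endothelial score, *Cd36* 0.15, 0.16 and 0.20, and *Lpl* 0.14, 0.0585 and 0.064. Early *Fabp4* was -7.07e-05 with the muscle score. The *Fabp4* interaction was 0.83 with the muscle and 0.95 with the endothelial score. Between stages in Fosl-2(Tg) mice, *Pparg* was -0.28 and *Cd36* -0.16 by limma voom, *Cd36* was -0.22 without the established male, *Fabp4* 0.51 with the muscle score, and *Lpl* 0.17 with the muscle and 0.05998 with the endothelial score. With a mouse left out, established *Pparg* ranged from -0.26 to 0.17, *Fabp4* from -0.95 to 0.16, *Cd36* from -0.26 to 0.10 and *Lpl* from -0.22 to 0.10, the *Lpl* interaction from -0.0412 to 0.28, *Fabp4* between stages in WT from -0.74 to 0.23, and in Fosl-2(Tg) mice *Pparg* from -0.18 to 0.24, *Cd36* from -0.22 to 0.15, *Lpl* from -0.16 to 0.0218 and *Cfd* from -0.0877 to 0.39.

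In the established group the replicate numbers did not meet the rule for pairing (correlations of -0.225 to 0.689). There the replicate block left out Fosl-2(Tg) replicate 7 and called 914 genes in place of 1032, with *Dgat1* lost (FDR = 0.0562 by edgeR). No early member or related gene changed its call with the block. Few counts limit *Adipoq*, *Plin1*, *Cidec* and *Lep*, and the spread between mice limits *Fabp4*.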

Other observations

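The mean of *Adipoq*, *Plin1*, *Cidec*, *Cfd* and *Lep*, each taken as standardized deviations from the group means, was most like *Mapk12* among 14521 genes (Pearson r = 0.69 over 28 libraries), followed by *Gdf11* (0.671), *Ushbp1* (0.662), *Tmem147* and *C1qtnf4* (both 0.638), *Mtfr1l* (0.618), *Timm10b* (0.617) and *Mdga1* and *Dgat2* (both 0.607). Of the genes named, *Dgat2* is on the lists of adipocyte-related genes. The score rests on few reads, and these values are weak beside those of *Fabp4*.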
